A study of Sus scrofa with 79 samples.

Results

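The gut homing chemokines CCL20, CCL25 and CCL28 and the chemokine receptors CCR9 and CCR10 were examined in blood, jejunum and ileum of young pigs. The 5 genes were chosen by name. A probe was taken for a gene when RefSeq (Sscrofa11.1) gave that gene for the transcript accession of the probe. Each gene had 1 probe, so that 5 of the 43603 probes on the array were used, and 5461 probes (12.5%) carried a gene symbol by the same match, for 2389 symbols. Probes without a symbol were grouped by accession, and each accession is counted as a gene wherever shares of all genes are given. The array held 36787 genes in this sense before any filter, most of them accessions without a symbol. None of the 5 probes was saturated or flagged as an outlier on any of the 79 arrays.

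The pigs were TOPIGS20 (GY × NL), and the piglets of a litter were divided over 3 treatments while they stayed with their mother sow. T1 piglets were left undisturbed apart from the drawing of blood at day 8. T2 piglets were injected under the skin with 2.5 mg/kg of tulathromycin, a macrolide antibiotic, at day 4 after birth. T3 piglets were given the identical injection at day 4 together with the routine handling of the farm, which was docking, clipping and weighing. Undisturbed and injected littermates therefore shared a sow and a pen in the day 8 experiment that the methods of the study describe. Those methods give pools of 4 piglets for day 8 and do not cover days 55 and 176. All arrays were labelled as pools, and the pools, not single animals, were the replicates. Blood was taken at day 8 (12 arrays, 4 pools per treatment), jejunum at day 8 (12 arrays), ileum at day 8 (11 arrays), and both tissues at day 55 and at day 176 (11 arrays per tissue and day), with 3 or 4 pools per treatment. P-values measure the spread between these pools.

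CCL25 is secreted by epithelial cells of the small intestine and binds CCR9, which is carried by T cells and IgA-producing cells that were primed in gut lymphoid tissue. CCL28 is made by epithelium of many mucosal surfaces and binds CCR10, the receptor of IgA plasmablasts, and also CCR3. CCL20 is made by the epithelium over lymphoid follicles and by enterocytes that meet microbial or inflammatory signals, and it attracts CCR6-bearing dendritic cells and lymphocytes. Chemokines of this kind bring circulating lymphocytes into the intestinal wall during the first weeks of life, when the gut of a piglet holds few of them.

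Signals were summarised as log2 of the processed spot intensity after quantile normalization. Levels across ages and between blood and tissue are given on the common scale of all 79 arrays, and values within a day are given on the scale of the arrays of that day (blood apart), so that a level differs between the scales. The share of probes well above background ran from 34.8 to 44.1% in blood, from 59.0 to 75.2% in the tissues at day 8, from 42.4 to 73.1% at day 55 and from 46.9 to 74.8% at day 176. The 4 ileum arrays of T3 at day 55 had 42.4 to 52.0%, against 62.6 to 73.1% on the other ileum arrays of that day. Jejunum T2 pool 8 and ileum T1 pool 11 lay farthest from their group means among the arrays of their tissue at day 8, and jejunum T2 pool 8 of day 176 lay farthest of all arrays. No pair of arrays was identical (highest correlation 0.992). Each group of tissue, day and treatment lay on 1 of the 11 slides, and no slide held arrays of tissues of different days. T1 lay on another slide than T2 and T3 in jejunum and blood at day 8 and in ileum at day 176. T3 lay on another slide than T1 and T2 in ileum at day 8, jejunum and ileum at day 55 and jejunum at day 176. In contrasts between such slides, treatment and slide cannot be told apart. The labels of blood and gut were borne out by markers. The mean levels of the T cell, neutrophil and epithelial markers in blood did not overlap those of either tissue at day 8, with neutrophil levels of 13.5 to 14.9 in blood and 4.10 to 8.55 in tissue, and of the 5 epithelial genes CDH1 and FABP2 were well above background on 0 of 12 blood arrays, FABP1 on 3, EPCAM on 10 and ANPEP on 12. FABP6, the ileal bile acid binding protein, did not separate the tissues at day 8, where its means on the common scale were 10.38 in jejunum and 10.81 in ileum. At day 55 it ran from 13.47 to 18.50 in jejunum and from 17.71 to 18.31 in ileum, and at day 176 from 6.92 to 18.43 and from 18.26 to 18.64, so that it overlapped on those days too and does not tell the segments apart. In bulk tissue, fewer cells of a type and less RNA per cell cannot be told apart.

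The chemokine CCL25 varied by at most 2.10-fold over the pools of a tissue and day on the scale of the day, and by at most 2.56-fold in scanner signal, and its level differed with the gut segment. On the common scale it ran from 14.88 to 15.85 (median 15.20) in jejunum at day 8, from 15.62 to 16.45 (median 16.21) at day 55 and from 15.49 to 16.52 (median 15.83) at day 176. In ileum it ran from 14.22 to 15.40 (median 14.83), from 13.87 to 15.04 (median 14.61) and from 13.77 to 14.68 (median 14.13) on the same days. All jejunum arrays of day 55 and day 176 were thus above all ileum arrays of those days, a separation that was not counted over all genes. In blood it was between 8.76 and 10.01. The means fell in the order jejunum at day 55, day 176 and day 8, then ileum at day 8, day 55 and day 176, then blood, and only ileum at day 8 and day 55 were neighbours that differed by less than the larger of their SDs (gap 0.22, larger SD 0.32).

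Its receptor CCR9 was low in tissue at day 8 and high afterwards. Jejunum ran from 7.08 to 8.07 (median 7.52) at day 8, from 10.30 to 10.86 (median 10.43) at day 55 and from 10.66 to 11.67 (median 11.11) at day 176. Ileum ran from 7.21 to 9.60 (median 7.72), from 9.42 to 10.13 (median 9.87) and from 10.17 to 11.26 (median 10.91). Jejunum at day 8 stood wholly below jejunum at day 55, whereas in ileum T1 pool 11 at day 8, at 9.60, reached into the range of day 55. Jejunum at day 176, ileum at day 176, jejunum at day 55 and blood were successive in the order of means. No neighbours among them differed beyond their spread, and each was set here against its neighbour only. Ileum and jejunum at day 8 did not differ beyond their spread either (gap 0.29, larger SD 0.63).

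The chemokine CCL28 and its receptor CCR10 were near the middle of the array at day 8 and well above it later. CCL28 ran from 5.05 to 6.76 (median 5.70) in jejunum and from 4.96 to 7.56 (median 5.78) in ileum at day 8, which placed its median at the 51.3 and 51.9 percentile of all probes. At day 55 it ran from 8.94 to 9.76 in jejunum and from 7.79 to 8.97 in ileum, and at day 176 from 8.93 to 10.50 and from 7.27 to 10.61. No day 8 array of either tissue reached the lowest day 55 array of the same tissue. Jejunum at day 176, jejunum at day 55, ileum at day 176 and ileum at day 55 followed each other in the order of CCL28 means without gaps beyond their spread.

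CCR10 ran from 5.19 to 6.80 (median 5.93) in jejunum and from 5.39 to 6.98 (median 6.04) in ileum at day 8. At day 55 it ran from 9.21 to 10.62 in jejunum and from 8.93 to 10.00 in ileum. At day 176 the ileum ran from 7.98 to 9.69, and the jejunum from 7.74 to 9.89 on 10 arrays, with T2 pool 8 apart at 3.68 and not well above background there. The highest CCR10 means were those of jejunum and ileum at day 55, and the lowest those of ileum and jejunum at day 8, which did not differ beyond their spread (gap 0.21, larger SD 0.51).

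CCL20 behaved differently from the other 4 genes, since its pools were far apart at day 8 in both tissues. It ran from 10.38 to 15.06 (median 12.15) in jejunum and from 10.69 to 16.03 (median 12.55) in ileum at day 8, with SDs of 1.38 and 1.58. At day 55 it ran from 9.96 to 12.14 in jejunum and from 10.57 to 12.21 in ileum, and at day 176 from 9.20 to 13.33 and from 10.25 to 12.74. The SDs were 0.70 in jejunum and 0.45 in ileum at day 55, and 1.48 and 0.68 at day 176, so that the jejunum pools of day 176 were as far apart by SD as those of day 8. No neighbouring tissue groups in the order of its means differed beyond their spread.

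**Figure D1:**
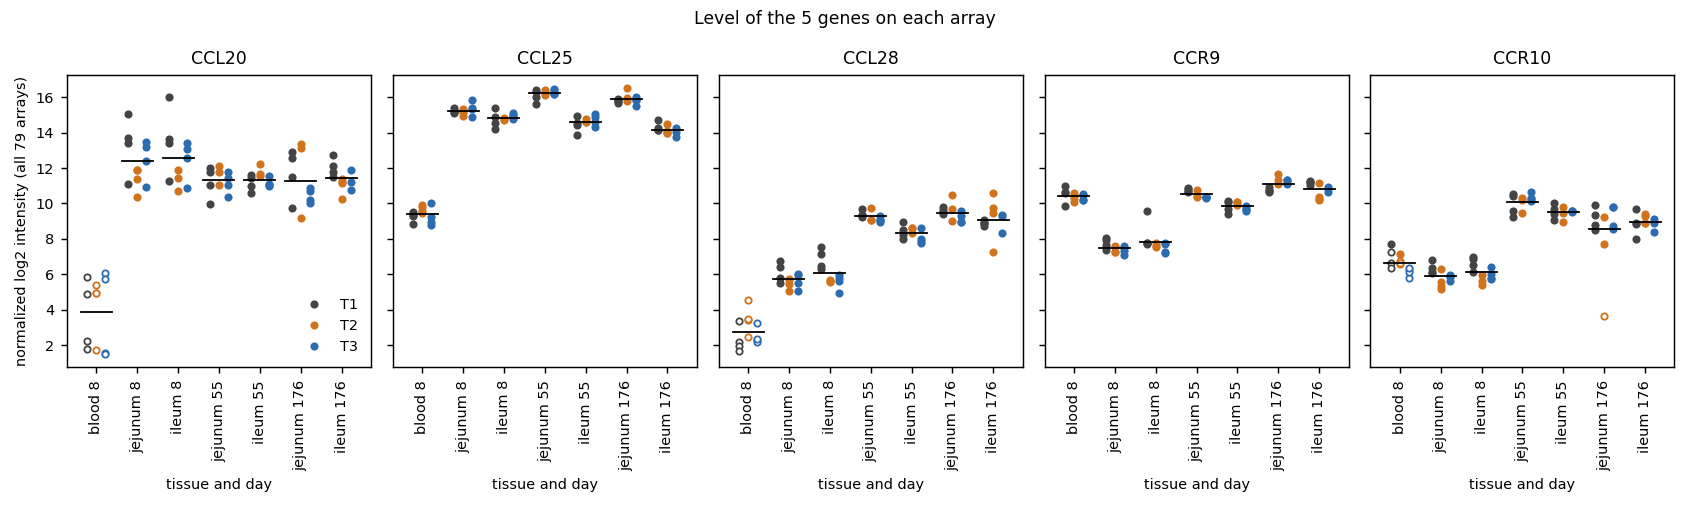
Levels of the 5 genes on every array, as normalized log2 intensity on the common scale of all 79 arrays, by tissue and day, with 1 point per pool coloured by treatment (open where not well above background) and a line at the mean of the tissue and day. CCL28, CCR9 and CCR10 sit low at day 8 and high at days 55 and 176, CCL25 stays between 13.77 and 16.52 in tissue, and CCL20 runs from 10.38 to 16.03 in tissue at day 8.

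The first comparison asked how the genes differed with age within a tissue. Between day 8 and day 55 the receptors CCR9 and CCR10 and the chemokine CCL28 rose in both tissues, and CCL25 rose in jejunum. A gene was called when its limma p-value, adjusted by Benjamini-Hochberg over all genes of the contrast, was under 0.05 and its fold over 1.5. In jejunum 4 of 5 genes were called, all higher at day 55, against 30.3% of all genes tested. In ileum 3 of 5 were called, all higher, against 40% of all genes. The tissue arrays of different days lay on different slides, and age and slide cannot be told apart.

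CCR10 had the largest estimated rise of the 5 genes, by 4.16 log2 (SE 0.28, 17.9-fold, adjusted p = 1.08e-19) in jejunum and by 3.40 log2 (SE 0.29, 10.6-fold, adjusted p = 8.48e-16) in ileum. CCL28 rose by 3.52 log2 (SE 0.23, 11.5-fold, adjusted p = 1.76e-20) in jejunum and by 2.30 log2 (SE 0.24, 4.92-fold, adjusted p = 8.83e-13) in ileum. CCR9 rose by 3.03 log2 (SE 0.14, 8.14-fold, adjusted p = 5.22e-28) in jejunum and by 2.06 log2 (SE 0.14, 4.16-fold, adjusted p = 1.09e-19) in ileum. The mucosal IgA pair of CCL28 and CCR10 and the lymphocyte receptor CCR9 thus moved the same way in both segments. CCL25 rose by 0.97 log2 (SE 0.13, adjusted p = 5.59e-09) in jejunum, while in ileum its difference was -0.21 (SE 0.13, adjusted p = 0.190). CCL20 differed by -1.07 (SE 0.52, adjusted p = 0.104) in jejunum and -1.10 (SE 0.54, adjusted p = 0.0862) in ileum, and neither passed. With the tissue arrays normalized without blood, or with a normexp background correction, CCL20 passed in both tissues, at -1.03 and -1.04 in jejunum and -1.06 and -1.01 in ileum.

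Markers of several cell types also differed between these days, where 30.3% of all genes were called in jejunum and 40% in ileum. All 7 T cell genes in the fit were called higher at day 55 in both tissues, with a median of 2.02 log2 in jejunum and 2.40 log2 in ileum, against a median over all genes of 0.06 and 0.10. The mean level of the T cell markers ran from 6.07 to 7.19 in jejunum at day 8 and from 7.99 to 9.22 at day 55, and from 6.07 to 6.84 and from 8.31 to 9.04 in ileum. CD79A, a B cell gene, rose in ileum by 5.82 log2 and differed by 1.17 (adjusted p = 0.167) in jejunum. XBP1, the only plasma cell marker of 7 listed with a probe that RefSeq named, differed by -0.34 and -0.28 without a call. XBP1 already stood at 13.7 in jejunum and 13.5 in ileum at day 8, against 11.3 in blood, and does not by itself show how plasma cells changed. Of 4 myeloid genes 3 were called higher at day 55 in both tissues (medians 1.84 and 1.75), and all 3 smooth muscle genes were called lower in both (medians -1.85 and -1.61). Of 5 epithelial genes 1 was called higher in jejunum and 3 lower in ileum, and of 3 neutrophil genes 2 were called lower in ileum. The part of these cells in the rises of CCL28, CCR9 and CCR10 was not tested.

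Between day 55 and day 176 the differences were smaller. In jejunum 1 of 5 genes was called, against 29.8% of all genes, and in ileum 2 of 5, against 21.1% of all genes. CCR10 fell in jejunum by 1.67 log2 (SE 0.29, adjusted p = 4.14e-06), and without jejunum T2 pool 8 of day 176 the difference was -1.14 (adjusted p = 9.75e-06). In ileum CCR9 rose by 0.97 log2 (SE 0.14, 1.96-fold, adjusted p = 2.29e-07) and CCL28 by 0.72 log2 (SE 0.24, 1.64-fold, adjusted p = 0.0170). The CCL28 call in ileum was lost without T2 pool 6 of day 176 (0.57, adjusted p = 0.0565), without the 4 ileum T3 arrays of day 55 (0.62, adjusted p = 0.133) and with normexp (0.49). CCR9 differed by 0.58 (SE 0.14, 1.49-fold, adjusted p = 0.000837) in jejunum, which missed the fold threshold. Scaled to the 75th percentile of each array this jejunum value was 0.38 while the median of all genes was 0.51. CCL25 differed by -0.32 (adjusted p = 0.0541) in jejunum and -0.45 (1.37-fold, adjusted p = 0.00731) in ileum, below the fold threshold.

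The next comparison set ileum against jejunum on each day. The CCL25 and CCR9 axis, CCL28 and CCR10 were all lower in ileum than in jejunum at day 55, and CCL25 alone at day 176. At day 8 none of the 5 genes was called, against 3.6% of all genes (1 of 5 had an unadjusted p under 0.05, as had 7870 of 28236 genes, limma). With the pool as a block, since both tissues of a pool came from the same piglets, 301 genes were called in place of 1016, and again none of the 5. At day 55, 4 of 5 were called, all lower in ileum, against 40.9% of all genes, and at day 176, 1 of 5 was called, against 26.5% of all genes.

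For CCL25, on the scale of the day, the ileum pools at day 55 ran from 14.59 to 15.66 and the jejunum pools from 16.12 to 16.76. At day 176 the ileum pools ran from 14.16 to 15.14 and the jejunum pools from 15.98 to 17.03. The tissues did not overlap within any of the 3 treatments on either day, and the share of all genes without such overlap was not counted. The difference was -0.35 (SE 0.11, adjusted p = 0.0619) at day 8, -1.31 (SE 0.11, adjusted p = 2.10e-08) at day 55 and -1.86 (SE 0.13, 3.63-fold, adjusted p = 8.01e-09) at day 176. CCL25 was lower in ileum in 10 of 11 same-numbered pools at day 8, in 11 of 11 at day 55 and in 10 of 10 at day 176. Slide 10 held ileum of T1 and jejunum of T3 at day 176, and within it the difference was -1.60. Slide 3 held ileum of T3 and jejunum of T1 at day 8, and within it the difference was -0.23. With slide as a fixed term the day 176 difference was -1.40 (adjusted p = 0.0721). At day 55 the tissues lay on different slides, and tissue and slide cannot be told apart.

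Most epithelial markers were also lower in ileum. At day 55, 3 of 5 epithelial genes were called lower in ileum and at day 176 4 of 5, with medians of -0.94 and -0.89 log2. Of all genes 40.9% and 26.5% were called on those days in either direction. On the common scale at day 176 the mean of CDH1 was 8.96 in ileum and 8.94 in jejunum, and that of EPCAM was 14.9 and 15.5. FABP2, the intestinal fatty acid binding protein, differed by -1.92 and -2.98 on those days. The mean level of the epithelial markers ran from 13.5 to 14.2 in ileum and from 14.8 to 15.2 in jejunum at day 55, and from 13.2 to 13.9 and from 13.7 to 15.0 at day 176. The part of epithelial content in the CCL25 difference was not tested.

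CCL28 at day 55 ran from 8.46 to 9.68 in ileum and from 9.66 to 10.48 in jejunum on the scale of the day. CCR9 ran from 10.14 to 10.87 in ileum and from 11.05 to 11.62 in jejunum. Both were lower in ileum in 11 of 11 same-numbered pools, with differences of -0.97 (SE 0.13, adjusted p = 5.88e-06) for CCL28 and -0.71 (SE 0.09, adjusted p = 2.77e-06) for CCR9. CCR10 ran from 9.64 to 10.73 in ileum and from 9.94 to 11.38 in jejunum, and was lower in ileum in 10 of 11 pools with a difference of -0.60 (SE 0.17, adjusted p = 0.00613). The CCR10 difference stood at 1.52-fold and fell under the fold threshold without any of 7 single arrays (-0.53 without ileum T2 pool 7), with normexp (-0.51) and without the ileum T3 arrays (-0.52, adjusted p = 0.0866). CCL20 showed no shift between the tissues at day 55, at 0.03 (95% interval -0.48 to 0.53).

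At day 176 CCR9 differed by -0.29 (SE 0.12, adjusted p = 0.0752), and its sign was not the same in each treatment. Ileum minus jejunum was 0.42 in T1, -0.86 in T2 and -0.42 in T3. CCL28 differed by -0.46 (adjusted p = 0.236), CCL20 by 0.10 (adjusted p = 0.875) and CCR10 by 0.51 (SE 0.45, adjusted p = 0.407). Without jejunum T2 pool 8 the CCR10 value was -0.01. With slide as a fixed term it was -2.90 (adjusted p = 0.273) and that of CCR9 was 0.85 (adjusted p = 0.232), so that neither gene had a settled direction at day 176.

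**Figure D2:**
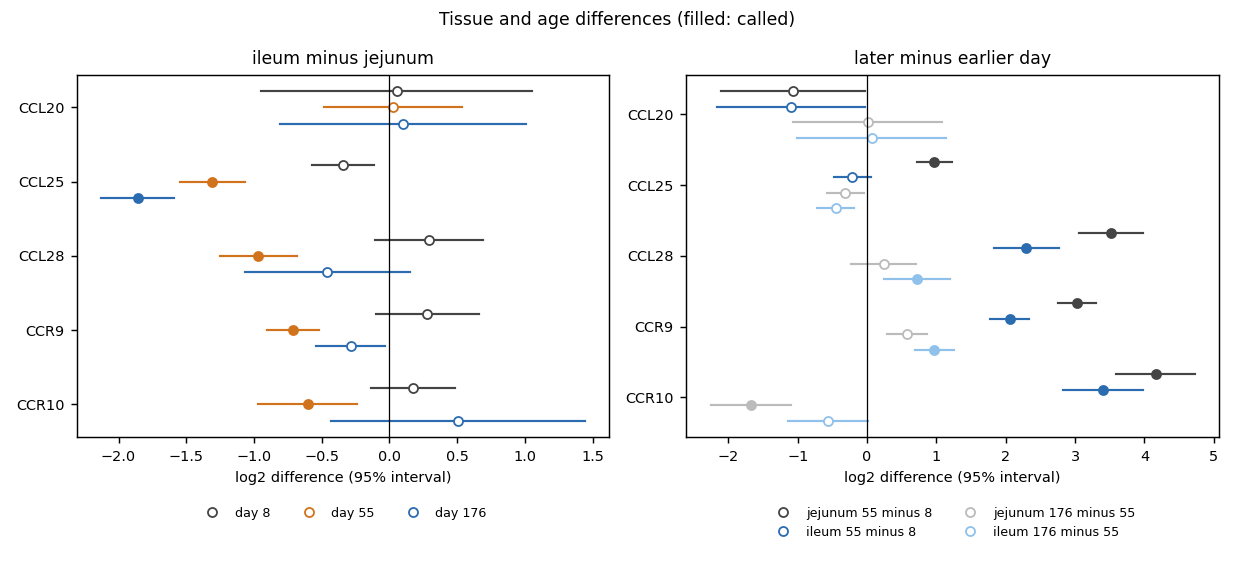
Log2 differences with 95% intervals from limma for each gene, ileum minus jejunum at days 8, 55 and 176 on the left and later minus earlier day within each tissue on the right; filled points were called. CCL25 moves from -0.35 at day 8 to -1.86 at day 176 in the tissue comparison, and the largest age differences are those of CCR10, CCL28 and CCR9 between days 8 and 55.

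Whether the difference between ileum and jejunum itself differed between ages was tested on the common scale. From day 8 to day 55 it moved toward lower ileum levels for 3 of 5 genes, against 25.4% of all genes called. The change was -1.19 (SE 0.19, adjusted p = 9.89e-07) for CCL25, -1.22 (SE 0.33, adjusted p = 0.00318) for CCL28 and -0.97 (SE 0.20, adjusted p = 0.000110) for CCR9, and it was -0.76 (adjusted p = 0.168) for CCR10. The CCR10 change was called by limma without jejunum T2 pool 8 of day 176 (-0.76, adjusted p = 0.0287). CCL28 and CCR9 thus rose less in ileum than in jejunum over this interval, and CCL25 rose in jejunum without a call in ileum. From day 55 to day 176 it was called for 1 of 5 genes, CCR10, at 1.11 (SE 0.41, adjusted p = 0.0422), against 21.1% of all genes. Without jejunum T2 pool 8 of day 176 the CCR10 value was 0.57 (adjusted p = 0.145), and leaving out any of 19 single arrays ended the call.

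The comparison of treatments at day 8 addressed the purpose of the study, the effect of an early antibiotic with or without handling. CCL28 was lower in ileum of T3 than of T1, and it was the only call among the 5 genes in either tissue. In ileum 1 of 5 genes was called for T3 against T1, lower, against 1.07% of all genes. None was called for T2 against T1 (0.418% of all genes) or for T3 against T2 (0.0283%). In jejunum none was called for T2 against T1 (0.0212% of all genes), for T3 against T1 (0%) or for T3 against T2 (0%). At an unadjusted p under 0.05 the members numbered 3, 3 and 0 in these ileum contrasts, beside 5366, 7055 and 2539 of 28236 genes, and 2, 1 and 0 in the jejunum contrasts, beside 2023, 963 and 1097.

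CCL28 in ileum stood at 6.98, 7.17, 8.22 and 7.82 in the T1 pools on the scale of the day. It stood at 6.33, 6.28 and 6.20 in the T2 pools and at 6.42, 6.64, 5.54 and 6.24 in the T3 pools. Every T1 pool was above every T2 and T3 pool, and the share of all genes that stood apart like this was not counted. T3 minus T1 was -1.34 (SE 0.32, 2.53-fold, adjusted p = 0.0485), and T2 minus T1 was -1.28 (SE 0.35, 2.42-fold, adjusted p = 0.0855). T1 and T2 of the ileum shared a slide, and T3 was on another, so that for T3 against T1 treatment and slide cannot be told apart. In jejunum the T1 pools stood at 6.43, 6.15, 7.09 and 7.43, the T2 pools at 6.31, 6.37, 5.66 and 6.09, and the T3 pools at 6.13, 6.60, 5.63 and 6.68, and these groups overlapped. The jejunum differences were -0.67 for T2 (adjusted p = 0.70) and -0.52 for T3 (adjusted p = 1.00). The ileum effect of T3 minus the jejunum effect was -0.82 (SE 0.46, adjusted p = 0.625, with 0.0354% of all genes called).

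The CCL28 call in ileum lay close to the threshold. It was lost with scaling to the 75th percentile (-1.14, adjusted p = 0.0510), without the filter on dim probes (-1.34, adjusted p = 0.0600), with each tissue fitted alone (-1.36, adjusted p = 0.146) and without jejunum T2 pool 8 and ileum T1 pool 11 together (-1.10, adjusted p = 0.114). It was lost without any of 16 of the 23 single arrays, and the lowest size was -1.11 without ileum T1 pool 11 (adjusted p = 0.142).

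CCR10, the receptor of CCL28, stood in ileum at 7.20, 6.81, 7.55 and 7.65 in T1, at 6.01, 6.60 and 6.26 in T2 and at 6.70, 6.43, 6.41 and 7.07 in T3. In jejunum it stood at 7.03, 6.72, 6.81 and 7.47 in T1, at 5.79, 5.98, 6.17 and 6.98 in T2 and at 6.60, 6.25, 6.50 and 6.56 in T3. T1 was above T2 without overlap in ileum and above T3 without overlap in jejunum. How many of all genes stood apart in this way was not counted. In jejunum T1 lay on another slide than T2 and T3, and treatment and slide cannot be told apart there. T2 minus T1 was -1.01 (SE 0.27, adjusted p = 0.0827) in ileum and -0.78 (SE 0.25, adjusted p = 0.333) in jejunum, and T3 minus T1 was -0.65 (adjusted p = 0.13) and -0.53 (adjusted p = 1.00). None of these passed, although the ileum value of T2 passed with normexp (-0.70, adjusted p = 0.0378), without ileum T1 pool 10 (-1.17, adjusted p = 0.0449) and without jejunum T2 pool 8 (-1.01, adjusted p = 0.0497). The jejunum value passed without jejunum T2 pool 8 and ileum T1 pool 11 (-1.02, adjusted p = 0.0419).

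**Figure D3:**
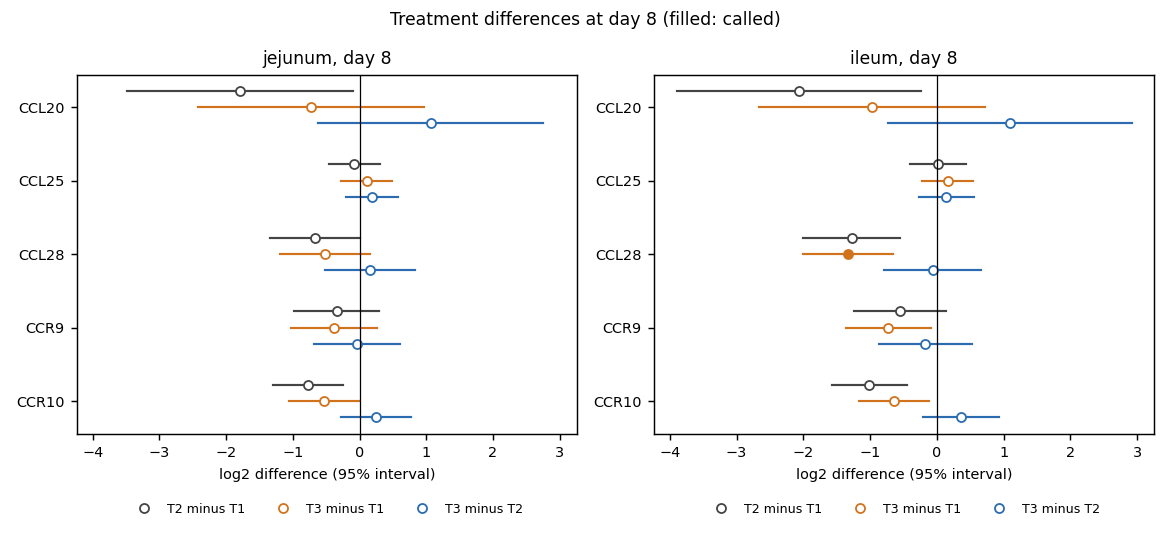
Log2 differences between treatments at day 8 with 95% intervals from limma, for the 5 genes in jejunum (left) and ileum (right); filled points were called. CCL28 in ileum for T3 minus T1 (-1.34) is the only filled point, the intervals of CCL20 are the widest, and those of CCL25 all include 0.

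CCR9 in ileum stood at 8.37, 8.45, 10.27 and 8.45 in T1, at 8.24, 8.29 and 8.46 in T2 and at 7.94, 7.88, 8.42 and 8.39 in T3. T1 pool 11 stood alone, and the other 10 pools lay between 7.88 and 8.46. T3 minus T1 was -0.73 (SE 0.31, adjusted p = 0.157), and without that pool it was -0.26 (adjusted p = 0.499). In jejunum CCR9 ran from 8.06 to 8.73 in T1, from 7.91 to 8.26 in T2 and from 7.75 to 8.26 in T3, with differences of -0.34 and -0.38. CCL25 differed between treatments by at most 0.19 log2 in size in either tissue, and its 95% intervals lay between -0.47 and 0.57.

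CCL20 in jejunum stood at 14.23, 11.75, 15.41 and 13.94 in T1 pools 9 to 12, at 11.06, 12.53, 12.06 and 12.52 in T2 pools 5 to 8 and at 14.01, 11.61, 13.78 and 13.02 in T3 pools 1 to 4. In ileum it stood at 13.97, 11.90, 16.20 and 14.17 in T1, at 11.36, 12.53 and 12.10 in T2 pools 5 to 7 and at 13.98, 11.53, 13.67 and 13.17 in T3. The T2 pools never exceeded 12.53, whereas 3 of 4 pools of T1 and of T3 were above that level in both tissues. T2 minus T1 was -1.79 (SE 0.81, adjusted p = 0.641) in jejunum and -2.07 (SE 0.87, adjusted p = 0.214) in ileum, and the 95% intervals were -3.48 to -0.10 and -3.89 to -0.24. Neither difference passed, and the T1 and T2 pools overlapped in both tissues.

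CCL20 differed far more between pools than between the segments. After removal of the treatment means the jejunum and ileum values of the same 11 pools had a correlation of 0.977, as a description of pools that share piglets. The same quantity was 0.766 for CCL28, 0.584 for CCR10, 0.332 for CCR9 and -0.05 for CCL25. Pool 11 was highest and pool 10 lowest of T1 in both tissues, and pools 1, 3, 4 and 2 followed in that order in T3 in both.

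Other genes also differed from pool to pool in the same way in both tissues at day 8. FABP6 ran from 5.85 to 15.98 in jejunum and from 5.64 to 16.27 in ileum, and was between 5.64 and 11.2 in the T2 pools. T1 pool 12, with 6.88 and 6.31, lay within the range of the T2 pools, and its CCL20 was 13.94 and 14.17. T3 pool 2, with 8.71 and 8.99, also lay within that range, and its CCL20 was 11.61 and 11.53, the lowest of T3. The B cell gene CD79A ran from 3.01 to 11.09 in jejunum. The mean level of the 4 myeloid markers in jejunum ran from 8.51 to 9.92 in T1, from 7.65 to 8.22 in T2 and from 8.17 to 9.17 in T3, and in ileum from 8.43 to 9.81, from 7.92 to 8.25 and from 8.13 to 9.12. The T cell markers ran from 6.63 to 7.01 in T1, from 6.07 to 6.37 in T2 and from 6.21 to 7.19 in T3 in jejunum, and from 6.40 to 6.84, from 6.07 to 6.29 and from 6.09 to 6.78 in ileum, so that T2 lay below T1 in both tissues for T cell and myeloid markers alike. The neutrophil markers in ileum ran from 5.78 to 8.32 in T1, from 5.24 to 5.85 in T2 and from 4.33 to 6.53 in T3. None of the T cell, myeloid and neutrophil genes was called between treatments at day 8. The part of these in the levels of CCL20, CCL28 and CCR10 was not tested.

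**Figure D4:**
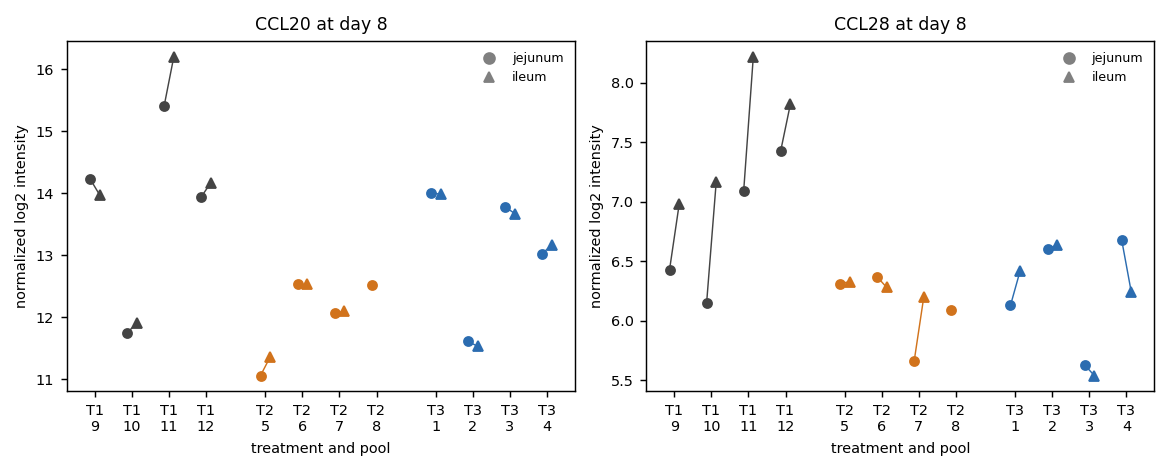
Normalized log2 intensity of CCL20 (left) and CCL28 (right) at day 8 on the scale of the day, by treatment and pool, with a circle for jejunum, a triangle for ileum and a line that joins the tissues of a pool. CCL20 moves from pool to pool alike in both tissues and stays at or below 12.53 in T2, and CCL28 in ileum is highest in the 4 T1 pools.

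Blood at day 8 gave no treatment call among the 4 genes tested, since CCL20 did not pass the filter on low values. Of all genes, 0.00694% were called for T2 over T1, 0.00347% for T3 over T1 and 0% when T3 was set against T2, and 0, 1 and 1 of the 4 genes had an unadjusted p under 0.05 by limma (of all genes 3084, 2030 and 1156). CCR10 gave both of those values. It stood at 4.36, 3.32, 3.87 and 3.01 in T1, at 3.39, 3.25, 3.28 and 3.79 in T2 and at 2.48, 2.93, 2.83 and 3.04 in T3, and was well above background on 3 of the 12 arrays. T3 lay below T2 without overlap (-0.60, adjusted p = 1.00), and T3 minus T1 was -0.82 (adjusted p = 0.50). The share of all genes that stood apart like this in blood was not counted. CCR9, well above background on all 12 arrays, ran from 6.35 to 7.50 in T1, from 6.58 to 7.09 in T2 and from 6.66 to 7.03 in T3.

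At days 55 and 176 the 3 treatments were compared by a moderated F test in each tissue. None of the 5 genes was called in jejunum at day 55 (10.2% of all genes), in ileum at day 55 (12.6%), in jejunum at day 176 (1.23%) or in ileum at day 176 (0.0106%). At an unadjusted p under 0.05 the members numbered 0, 0, 2 and 1 in that order, and all genes 7440, 8042, 5425 and 1986. CCL28, called at day 8, had largest pairwise differences of 0.32 and 0.45 at day 55 and 0.55 and 0.37 at day 176 in jejunum and ileum, with adjusted p-values from 0.346 to 1.00.

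Among the genes examined, CCR9 was the one whose treatments stood apart most often at these ages, although it was not called. How many of all genes stood apart in this way was not counted. T3 and T1 lay on different slides in both tissues at these ages, and treatment and slide cannot be told apart there. In jejunum at day 176 it was 11.15, 11.38, 11.13 and 11.24 in T1, 11.56, 11.75 and 12.09 in T2 and 11.81, 11.55, 11.59 and 11.75 in T3, so that T1 was lowest without overlap (largest difference 0.58, adjusted p = 0.223). In ileum at day 176 it was 11.67, 11.71, 11.50 and 11.68 in T1, from 10.64 to 11.60 over the 4 arrays of T2 and 11.14, 11.26 and 11.37 in T3 (largest difference 0.69, adjusted p = 0.508). T1 was thus the lowest group in jejunum and had the highest mean in ileum, and the difference between those tissues was not tested. At day 55 the jejunum pools ran from 11.36 to 11.62 in T1, from 11.13 to 11.51 in T2 and from 11.05 to 11.13 in T3 (largest difference 0.40, adjusted p = 0.216).

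CCR10 in jejunum at day 176 was 8.96, 9.30, 9.82 and 10.37 in T1, 9.71, 8.22 and 4.30 in T2 and 10.28, 9.05, 10.31 and 9.21 in T3. The largest difference was 2.30 (adjusted p = 0.186), and without T2 pool 8 it was 0.75 (adjusted p = 0.751). That array had a mean epithelial marker level of 13.7 against 14.6 to 15.0 on the other 10 jejunum arrays of the day, a smooth muscle level of 8.61 against 10.1 to 11.2, and CD79A at 1.72 against 5.02 to 10.2.

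The comparison of blood with tissue at day 8 was made on the common scale, on which 75.6% of all genes were called between blood and jejunum and 74.2% between blood and ileum. Blood and the day 8 tissues lay on different slides, and in these contrasts tissue and slide cannot be told apart. By the fit 2 of the 5 genes were called higher and 3 lower in blood than in jejunum. Against ileum 1 was called higher and 3 lower. The direction of CCL28, called lower, and of CCR10, called higher than in jejunum, cannot be given. CCL25 was lower in blood, with differences of -5.83 (57.1-fold, adjusted p = 2.07e-47) from jejunum and -5.41 (42.6-fold, adjusted p = 6.68e-45) from ileum. CCL20 and CCL28 were not well above background on any of the 12 blood arrays. Against the lowest signal well above background, CCL20 was at least 52.4-fold lower in blood than in jejunum and at least 59.1-fold lower than in ileum, and for CCL28 neither direction nor fold is given, because its mean tissue level at day 8 lay under that signal, although the fit called it lower in blood.

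CCR9 was higher in blood than in both tissues after normalization, by 2.90 log2 (SE 0.13, 7.44-fold, adjusted p = 2.69e-29) over jejunum and 2.62 log2 (SE 0.14, 6.13-fold, adjusted p = 2.12e-26) over ileum. Its scanner signal was nevertheless lower, at 82.9 to 168 in blood against 185 to 451 in jejunum and 221 to 708 in ileum, on blood arrays whose 75th percentile was 30.8 to 54.1 against 389 to 1287 in day 8 tissue. The direction of CCR9 between blood and tissue therefore rests on the normalization, and scaling to the 75th percentile, which moved the median of all genes from 0.26 to 1.39 and 1.55, gave 2.79 and 2.53. For CCR10 the fit gave 0.71 more in blood than in jejunum (SE 0.28, adjusted p = 0.0157) and 0.54 more than in ileum (adjusted p = 0.0735), with 3 of 12 blood arrays well above background, and with normexp the first value was 0.23 (adjusted p = 0.242). Its scanner signal was lower in blood, at 6.05 to 23.3 against 47.8 to 211 in jejunum and 58.3 to 222 in ileum. Its mean tissue levels also lay under the lowest signal well above background in blood, so that its direction is not given.

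Of 37 other genes listed for lymphocyte homing and mucosal IgA, 13 had a probe that RefSeq named. None of the 13 was called between treatments in either tissue at day 8, and their median difference for T3 against T1 was -0.16 in jejunum and -0.37 in ileum, beside -0.01 and -0.000732 for all genes. From day 8 to day 55, 5 of 13 rose and 0 fell in jejunum, where 4897 of 32915 genes rose and 5076 fell (30.3% called), and 8 rose and 4 fell in ileum, where 6706 rose and 6460 fell (40%). PIGR, the receptor that carries IgA across the epithelium, ran from 5.04 to 9.22 in jejunum at day 8 and from 11.15 to 13.81 at day 55, and rose by 5.14 log2 (SE 0.29) there and by 4.43 log2 (SE 0.30) in ileum. TNFSF13 and TNFSF13B, cytokines that sustain B cells and plasma cells and are known as APRIL and BAFF, rose by 2.69 and 3.29 log2 in jejunum and by 2.09 and 2.82 log2 in ileum.

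CCR7, the receptor that brings lymphocytes into lymph nodes and Peyer's patches, rose by 4.25 log2 (SE 0.36) in ileum and differed by 0.82 (adjusted p = 0.0543) in jejunum. The adhesion molecules VCAM1 and MADCAM1, the latter the ligand of the gut homing integrin, rose by 1.85 and 0.74 log2 in ileum and differed by 0.22 and -0.58 in jejunum without a call. LTA, which takes part in forming lymphoid follicles, rose by 2.49 log2 in ileum. CCL27, the other ligand of CCR10, rose by 1.02 log2 in jejunum. In ileum CCR3, the other receptor of CCL28, the cytokine IL17A, CDH1 (E-cadherin) and ITGB1 (integrin beta 1) fell, with differences of -1.36, -1.02, -0.96 and -0.64. From day 55 to day 176, 2 of 13 rose and 4 fell in jejunum (29.8% of all genes called), and 2 rose and 0 fell in ileum (21.1%), these being IL17A and CCR3 by 2.67 and 0.91 log2. In ileum at day 55 IL17A had a mean of only 1.99 on the common scale, and CCR3 went down to 1.72. Whether IL17A and CCR3 were well above background was not examined, so that their differences may be limited by the background.

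Between the tissues 0 of 13 were called at day 8 (3.6% of all genes), 4 of 12 were higher and 5 lower in ileum at day 55 (40.9%), and 7 of 13 were higher and 2 lower at day 176 (26.5%). At day 176 PIGR and TNFSF13 were lower in ileum, at -2.08 (SE 0.28) and -1.39 (SE 0.14), beside -1.86 for CCL25. CCR7 was higher in ileum by 3.26 log2, IL17A by 2.82, VCAM1 by 1.82, LTA by 1.81, MADCAM1 by 1.51 and CCR3 by 0.88 log2. The jejunum mean of IL17A was then only 2.09 on the common scale, and its detection was not examined. The 5 chemokine and receptor genes had no call toward ileum on any day. Among treatments 2 of 12 were called in jejunum at day 55, against 10.2% of all genes, PIGR being one of them (largest difference 1.80, adjusted p = 0.000210), and 0 in ileum at day 55 or in either tissue at day 176.

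**Figure D5:**
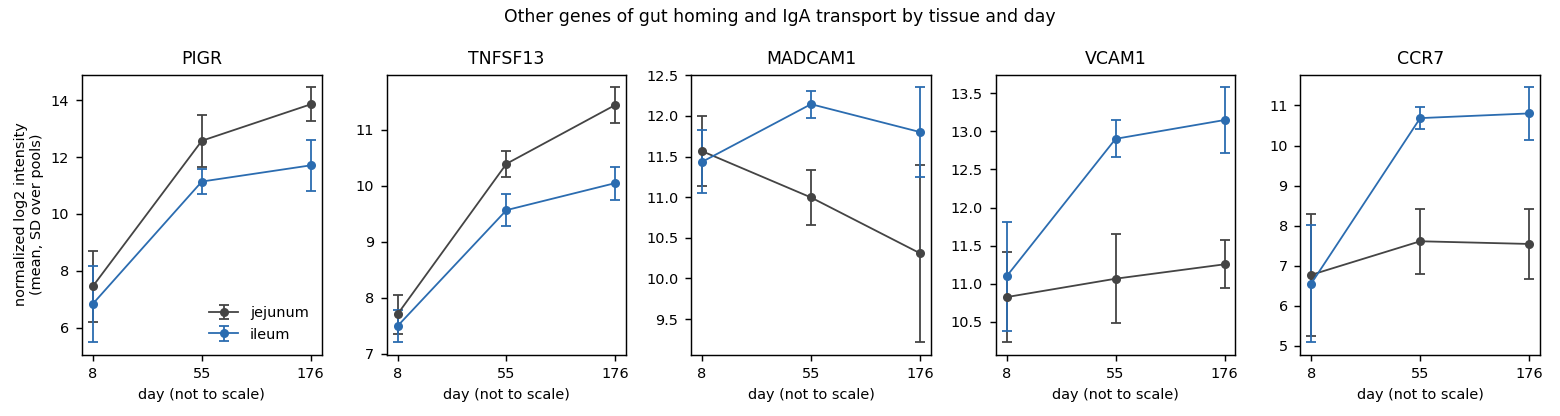
Levels of PIGR, TNFSF13, MADCAM1, VCAM1 and CCR7, as normalized log2 intensity on the common scale, in jejunum and ileum by day (spaced evenly), with points at the mean and bars of 1 SD over pools; these genes were chosen after their values were seen. PIGR rises between days 8 and 55 in both tissues, and CCR7, VCAM1 and MADCAM1 are higher in ileum than in jejunum at days 55 and 176.

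Likeness between genes was described by Pearson's r of the 21 group means on the common scale, over 2277 named genes, with no test. These groups share arrays, slides and the step from blood to tissue, and r over the 18 tissue groups is given beside it. CCL25 was most like SLC15A1, the intestinal peptide transporter (0.988, and 0.910 in tissue), OTC, a urea cycle enzyme (0.983 and 0.827), and ARNTL, a clock gene (0.982 and 0.843). CCR9 was most like KLRK1 (0.974 and 0.991) and CD8A (0.936 and 0.971), genes of cytotoxic lymphocytes, and GZMH, a granzyme (0.937 and 0.953). CCL28 was most like PI3, a protease inhibitor (0.977 and 0.941), CHRM1, a muscarinic receptor (0.971 and 0.937), and C4BPA, a complement regulator (0.970 and 0.943). CCR10 was most like FUT2, a fucosyltransferase (0.948 and 0.964), the chemokine CCL5 (0.947 and 0.942) and the proteasome subunit PSMB9 (0.944 and 0.958). CCL20 was most like GCG, the proglucagon gene (0.976), LGALS2, a galectin (0.976), and CLCA1 (0.973), and in tissue alone these values were 0.594, 0.537 and 0.440, so that the likeness of CCL20 lay mostly in the step from blood to tissue. Among the members over the 18 tissue groups CCL28 and CCR9 had an r of 0.979, CCL28 and CCR10 of 0.845 and CCR9 and CCR10 of 0.804, while CCL25 had at most 0.245 with any other member and CCL20 was below 0 with all of them.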

How the data were processed

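Pooled RNA, of 4 piglets per pool at day 8, was labelled with a single dye and hybridised to a porcine Agilent array. The deposited spot intensities were made by the authors with Agilent Feature Extraction 10.7.3.1, which subtracts the background within an array and does not normalize between arrays. The genome build of the array design was not given in the sources used here. A deposited value table of the same arrays was not used. RNA quality values and arrays of missing pools were not analysed here.

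Log2 and quantile normalization were applied, as in the methods of the study. Signals under 1 were set to 1 before log2, and flagged outlier spots were dropped and replicate spots averaged per probe before quantile normalization, which those methods do not state. The study set aside 1 jejunum and 1 ileum array of day 8 after quality control without naming them in the sources used here, and all 23 tissue arrays of day 8 given here were kept. A probe was kept if, in at least 1 group, it lay at or above the 20th percentile on all arrays. Probes of a gene (of a symbol, or of an accession where no symbol was known) were then averaged. This left 28236 genes in the fit of the day 8 tissues (23 arrays), 30005 at day 55 (22 arrays), 28236 at day 176 (22 arrays), 28832 in blood (12 arrays) and 32915 over all 79 arrays. Group means (tissue, day and treatment) were estimated by lmFit and eBayes of limma 3.58.1 under R 4.3.3, and calls needed a Benjamini-Hochberg adjusted p under 0.05 and a fold over 1.5. The number of arrays limits the precision. The calls also varied with the normalization, and each group lay on 1 slide. The test was tested on simulated data, with no result reported here.

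The named genes were the 5 members, the homing list, markers of other cell types and, for each member, the 3 genes most like it. Some genes of these lists are counted but not reported by name here. The members and lists were chosen with earlier results of these data known. The groups came from the labels, the sow sets from the methods of the study. Alternatives were scaling to the 75th percentile, normexp with an offset of 50 on median signals, other filters, probes kept apart, an intensity trend, tissues or days fitted alone, slide, replicate blocks and leaving out each array. Same-numbered pools of jejunum and ileum hold the same piglets at day 8 per the methods of the study, and the correlations of their deviations from the group means ran from 0.000810 to 0.438 (7 of 11 over 0.1). At day 55 they ran from -0.10 to 0.21 and at day 176 from -0.02 to 0.12, and there the sources used here do not say what a number marks.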

Additional observations from a re-analysis of the deposited data

Results flagged for a closer look

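CCL20 in ileum of T3 at day 55 had 1 pool apart from the others. Pool 3 stood at 12.29 on the scale of the day and the other pools at 11.75, 11.78 and 11.84, so that its gap took 0.833 of the range of the group. CCR9 in ileum of T1 at day 8 had pool 11 at 10.27 against 8.37, 8.45 and 8.45, a gap of 0.958 of the range. On the same array the mean epithelial marker level was 14.3 against 14.6 to 15.0 on the other 10 ileum arrays, and the smooth muscle level 9.72 against 10.6 to 11.9. In all 71 sets of 4 pools were examined in this way, each being 1 gene in 1 group with every pool well above background. About 1 in 20 of them is expected to pass by chance, and 2 passed. Sets of different genes share the same arrays.

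The difference between ileum and jejunum itself differed between ages for 4 genes. From day 8 to day 55 it moved by -1.19 for CCL25, by -1.22 for CCL28 and by -0.97 for CCR9. For CCR10 it moved by -0.76 over that interval, called only in refits without jejunum T2 pool 8 of day 176. From day 55 to day 176 it moved by 1.11 for CCR10, and by 0.57 (adjusted p = 0.145, limma) without jejunum T2 pool 8 of day 176.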

How the results depend on the processing

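Among the comparisons of the 5 genes, the count of day 8 tissue calls was the least stable. It was 1 as reported, 0 with scaling to the 75th percentile, 2 with normexp, 0 without the filter on dim probes and 0 with each tissue alone, and ran from 0 to 2 when single arrays were left out. Leaving out single arrays gave 4 to 5 calls for ileum against jejunum (5 as reported), 9 to 11 for age (10), 9 to 10 for blood against tissue (9), 3 to 4 for the tissue contrast between ages (4), 0 to 1 for treatments at days 55 and 176 (0, the call being CCR10 in jejunum at day 176 without T2 pool 5) and 0 for treatments in blood. CCR10 for ileum against jejunum at day 176, 0.51 as reported, was -2.90 with slide as a fixed term and -0.0124 without jejunum T2 pool 8 of day 176 and of day 8 and ileum T1 pool 11 of day 8, an alternative chosen after seeing the data, and ran from -0.0124 (without jejunum T2 pool 8) to 0.891 (without jejunum T2 pool 5) when single arrays were left out. CCR9 there, -0.29 as reported, was 0.85 with slide. In the other alternatives run no member changed direction beyond the SE of its reported value. Apart from left-out arrays, single comparisons of a member lost their call in 11 of 975 refits and gained one in 10, and among refits without 1 array in 43 and 16 of 4769. The sow set as a replicate block left 1 call at day 8, and the pool as a replicate block left 5 calls for ileum against jejunum and 9 for blood against tissue, so that pairing changed no call of the 5 genes. Over all genes the sow set block gave 32 calls in place of 6 for jejunum T2 against T1 and 41 in place of 8 for ileum T3 against T2. For ileum T3 against T1 the 303 genes called became 489 with the 75th percentile, 596 with normexp, 199 without the filter, 5 with ileum alone and 176 without those 3 arrays, and for ileum T2 against T1 the 118 became 19, 151, 36, 0 and 33. For ileum against jejunum normexp gave 145, 6135 and 3958 calls at days 8, 55 and 176 in place of 1016, 12287 and 7473, and the fixed slide term 0 and 435 at days 8 and 176. From day 8 to day 55 the 9973 and 13166 calls in jejunum and ileum became 16570 and 20719 with the 75th percentile and 4895 and 6934 with normexp. The 75th percentile moved the share of calls that were higher from 41.6% to 72.0% for ileum T3 against T1, from 25.7%, 49.4% and 47.4% to 5.96%, 74.0% and 28.9% for ileum against jejunum at days 8, 55 and 176, from 50.9% to 74.7% for ileum between days 8 and 55, from 56.2% to 82.8% for jejunum and 55.3% to 31.0% for ileum between days 55 and 176, from 55.8% to 73.6% and 74.5% for blood against jejunum and ileum, and from 51.4% and 43.1% to 76.1% and 15.7% for the tissue contrast between ages. It also moved the median of all genes to 0.41 and -0.24 for ileum against jejunum at days 55 and 176, to 0.55 for ileum from day 8 to day 55, to 0.51 and -0.20 for jejunum and ileum from day 55 to day 176, to 1.39 and 1.55 for blood against jejunum and ileum, to 0.13 for ileum T3 against T1, to -0.16 for blood T3 against T1, and to 0.56 and -0.70 for the tissue contrast between ages, and the cause was not tested. Slide as a random block could not be fitted, because each group lay on 1 slide. Signals of CCL20 and CCL28 in blood were limited by the background, as were those of CCR10 on most blood arrays.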
